A study of Mus musculus with 9 samples.

Results

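The proximal part of the imprinted Dlk1-Dio3 locus was followed through 9 miRNAs, all counted as 5p arms, which are the mature strands cut from the 5′ side of the hairpin. They were chosen by name (mmu marks mouse): mmu-miR-673-5p, mmu-miR-493-5p, mmu-miR-337-5p, mmu-miR-431-5p, mmu-miR-433-5p, mmu-miR-127-5p, mmu-miR-434-5p, mmu-miR-136-5p and mmu-miR-370-5p, whose genes lie before the large miR-379 to miR-410 cluster. This choice was made with earlier results of these data known. All 9 had a single row in the table of 1052 miRNAs. The 3p arms of these hairpins had no row in it and were not analysed here. The source was lateral cortex of the mouse strain C57BL/6 at embryonic day 14.5, from which meninges, ganglionic eminences and olfactory bulb had been removed, and cells were sorted by endogenous reporter fluorescence. Proliferating progenitors are titled RminusGminus, differentiating progenitors RplusGminus and newborn neurons Gplus, with 3 libraries each. The titles name the reporter signals only by these letters, the R signal of the Gplus cells is not stated, and the RminusGminus cells are defined by the absence of both signals. The labels do not say whether libraries of a population came from separate litters or pooled embryos, so p-values measure the spread between these libraries, which may be technical.

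Imprinted genes are read from only 1 parental chromosome. In the Dlk1-Dio3 locus the maternal chromosome makes the long noncoding RNAs Meg3, Rian and Mirg together with all of the locus' miRNAs, while the paternal chromosome makes the protein-coding genes Dlk1, Rtl1 and Dio3. Rtl1 derives from a retrotransposon, and several of the maternal miRNAs are made from the strand opposite its reading frame, so that they pair perfectly with the Rtl1 mRNA and can direct its cleavage. The miRNAs of the locus are abundant in brain.

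In these cells the 5p arms of the proximal miRNAs were a small fraction of all miRNA counts in the table and were highest in newborn neurons. Their summed level was 296 ± 72.0 CPM in the proliferating population, 375 ± 35.2 CPM in the differentiating population and 1043 ± 196 CPM in neurons (SD, n = 3 each), where CPM are counts per 1e6 miRNA counts after TMM scaling, which corrects for differences in composition between libraries. Of all miRNA counts of a population they took 0.0271%, 0.0373% and 0.107%. Of the 7 members with enough counts to test, 6 were higher at the second step, from differentiating progenitors to neurons, by 0.74 to 1.68 on the log2 scale, where 1 is a doubling, beside 23.9% of all tested miRNAs. Of these 6, miR-673-5p and miR-370-5p passed the filter on low counts only through their neuron libraries. At the first step, between both progenitor populations, no member passed the test, which here means an adjusted p under 0.05, beside 16.0% of all tested miRNAs in either direction. In bulk libraries a higher level per cell and a larger share of cells that express a miRNA cannot be told apart.

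The mature sequences are printed because they define what was counted and which mRNAs each miRNA could pair with. They run 5′ to 3′, in their order along the chromosome, with the seed (bases 2 to 8), the stretch that pairs with target mRNAs, in capitals. All 9 were found in the RefSeq table of build GRCm38.p6.
miR-673-5p: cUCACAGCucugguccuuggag
miR-493-5p: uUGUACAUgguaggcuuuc
miR-337-5p: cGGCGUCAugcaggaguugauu
miR-431-5p: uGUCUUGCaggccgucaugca
miR-433-5p: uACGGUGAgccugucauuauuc
miR-127-5p: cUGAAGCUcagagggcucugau
miR-434-5p: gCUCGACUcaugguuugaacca
miR-136-5p: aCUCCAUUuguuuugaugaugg
miR-370-5p: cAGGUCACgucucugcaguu
All 9 seeds differ from each other, so the members do not form a seed family. The closest pair, miR-434-5p and miR-136-5p, share 5 of their seed bases at the same positions. Among all mouse mature miRNAs in that table, 7 of the members have a seed of their own. The seed of miR-673-5p recurs in miR-6985-3p, and that of miR-370-5p in miR-1193-3p.

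The members fall into a few positions on chromosome 12, given in build GRCm38, which is the assembly also called mm10 that the submitters' processing notes name. The lncRNA Meg3 spans chr12:109541001-109571726 on the plus strand. miR-673-5p, at chr12:109572004-109572025, starts 0.278 kb after the annotated end of Meg3. miR-493-5p (chr12:109580243-109580261) and miR-337-5p (chr12:109585818-109585839) follow at 8.52 and 14.1 kb after that end, and like miR-673-5p they lie in no annotated gene other than their own. The next 5 lie within Rtl1 (chr12:109589193-109600330, minus strand), on the opposite strand and inside its coding exon. These are miR-431-5p (chr12:109590459-109590479), miR-433-5p (chr12:109591729-109591750), miR-127-5p (chr12:109592854-109592875), miR-434-5p (chr12:109594528-109594549) and miR-136-5p (chr12:109595331-109595352). miR-370-5p (chr12:109618270-109618289) lies further on, in an intron of the lncRNA Rian and on its strand, 90.8 kb before miR-379-5p.

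**Figure D1:**
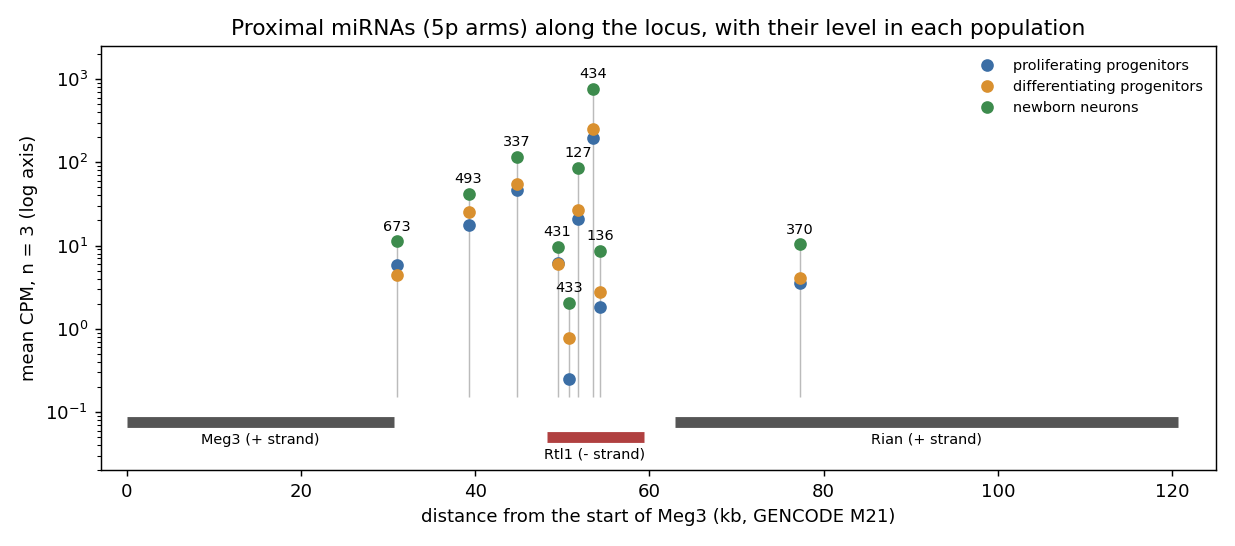
Mean level (CPM, TMM-scaled, log axis, n = 3 libraries) of each proximal miRNA in the 3 populations against its distance from the start of Meg3 in kb; the bars below are the annotated genes, with Rtl1 on the minus strand. miR-434 is the highest in every population, and the point for newborn neurons is the top one for all 9 miRNAs.

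The pairing with Rtl1 can be read from the sequences. Each of the 5 members opposite Rtl1 has a site in the annotated Rtl1 transcript that is complementary over its whole length, 21 bases for miR-431-5p and 22 bases for the other four. The sites of miR-127-5p and miR-434-5p, the most abundant members of this group, are printed as DNA in the sense of the Rtl1 transcript.
Rtl1 site of miR-127-5p: atcagagccctctgagcttcag
Rtl1 site of miR-434-5p: tggttcaaaccatgagtcgagc
They cover bases 2676 to 2697 and 1002 to 1023 of the transcript. The remaining 4 members have no complete match in it. Rtl1 mRNA was not measured in these small RNA libraries.

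The hairpins of the same pair, from which both arms are cut, are printed with the counted 5p arm in capitals.
miR-127 hairpin: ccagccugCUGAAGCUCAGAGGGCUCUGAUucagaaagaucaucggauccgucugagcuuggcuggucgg
miR-434 hairpin: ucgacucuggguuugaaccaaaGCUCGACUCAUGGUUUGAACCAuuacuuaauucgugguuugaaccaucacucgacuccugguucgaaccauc
They span chr12:109592846-109592915 and chr12:109594506-109594599, both on the plus strand. The lower-case stretch after the capitals holds the 3p arm, which had no row in the table, so its level remains unknown here.

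mmu-miR-434-5p, opposite Rtl1, carried most of the signal. Levels of different miRNAs are compared here as read counts, in which each sequence also has its own efficiency of adapter ligation. It had 208, 163 and 197 counts in replicates 1 to 3 of the proliferating population, 387, 261 and 345 in those of the differentiating population and 2689, 1784 and 830 in those of the neurons. Scaled, these were 158, 167 and 258 CPM, then 276, 230 and 246 CPM, then 692, 941 and 638 CPM. Both progenitor populations overlapped, and every neuron library lay above every progenitor library. The second step came with a log2 rise of 1.59 (SE 0.20, edgeR adjusted p = 1.71e-05), and the whole lineage, from proliferating progenitors to neurons, with one of 1.98 (SE 0.21, edgeR adjusted p = 4.53e-07). Its difference at the first step was 0.38 (SE 0.21, edgeR adjusted p = 0.244). By mean level it ranked 67th, 60th and 44th in the 3 populations among the 560 miRNAs with a count, in a table with few 3p arms (114 rows named 3p against 925 named 5p).

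mmu-miR-127-5p, its neighbour 1.65 kb upstream, showed the same order of populations. It had 24, 16 and 22 counts in the proliferating population, 38, 30 and 37 in the differentiating population and 257, 233 and 88 in neurons. The scaled levels were 18.2, 16.4 and 28.8 CPM, then 27.1, 26.4 and 26.3 CPM, then 66.1, 123 and 67.6 CPM. Neuron replicate 2 was the highest library for miR-127-5p as it was for miR-434-5p, and the neuron libraries again lay above all others. miR-127-5p rose by 1.68 at the second step (log2, SE 0.28, edgeR adjusted p = 0.000143) and by 2.05 over the whole lineage (log2, SE 0.30, edgeR adjusted p = 1.78e-05), the largest of the 7 tested members in both. At the first step the log2 difference was 0.37 (SE 0.33, edgeR adjusted p = 0.484).

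The 5p arms of the other members opposite Rtl1 had few counts. mmu-miR-431-5p, a miRNA reported to promote axon growth in sensory neurons, had 8, 3 and 7 counts in the proliferating population, 9, 5 and 10 in the differentiating population and 43, 24 and 7 in neurons. Neuron replicates 1 and 2 stood at 11.1 and 12.7 CPM, while replicate 3, at 5.38 CPM, lay among the progenitor libraries, which ran from 3.07 to 9.16 CPM. It was the only tested member that was called neither in a pairwise comparison nor in the joint test of any difference among the 3 populations (edgeR adjusted p = 0.152), in which the other 6 of 7 were called, beside 58.5% of all tested miRNAs. Its mean level was 6.10 ± 3.05 CPM in the proliferating and 5.98 ± 1.41 CPM in the differentiating population (SD, n = 3 each), with a fitted first-step log2 difference of 0.035 (SE 0.47, edgeR adjusted p = 0.965). The log2 difference was 0.73 at the second step (SE 0.39, edgeR adjusted p = 0.137) and 0.77 over the whole lineage (SE 0.41, edgeR adjusted p = 0.126).

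mmu-miR-136-5p and mmu-miR-433-5p lay below the filter on low counts and were not part of the test. miR-136-5p had 2, 0 and 3 counts in the proliferating population, 3, 3 and 5 in the differentiating population and 27, 21 and 10 in neurons. Its neuron libraries, from 6.95 to 11.1 CPM, lay above all progenitor libraries. The means were 1.81 ± 1.98, 2.78 ± 0.719 and 8.57 ± 2.20 CPM (SD, n = 3 each). A count of 0 allows up to 3 counts, and the mean of the proliferating population lay under what 3 counts were worth there on average (3.09 CPM), so no fold is given against it. Without the filter, which added it to the fit, its log2 change at the second step was 1.60 (SE 0.49, edgeR adjusted p = 0.00884). miR-433-5p had 1, 0 and 0 counts in the proliferating population, 0, 1 and 2 in the differentiating population and 5, 2 and 5 in neurons. Its neuron libraries, from 1.06 to 3.84 CPM, overlapped with the differentiating ones, which reached 1.42 CPM. They lay above the proliferating ones, which reached 0.758 CPM at 1 count. Since 3 counts are worth 0.772 to 3.93 CPM depending on the library, no fold is given for it, and a difference was not detectable at this depth.

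Among the members between Meg3 and Rtl1, mmu-miR-337-5p had the second highest counts of the 9. It had 60, 37 and 42 counts in the proliferating population, 58, 52 and 108 in the differentiating population and 392, 227 and 166 in neurons. The means were 46.1 ± 8.60, 54.7 ± 19.3 and 116 ± 13.7 CPM (SD, n = 3 each). Replicate 3 of the differentiating progenitors, at 76.9 CPM, stood apart from the other two at 41.4 and 45.8 CPM, and all neuron libraries were at 101 CPM or more. miR-337-5p rose by 1.07 at the second step (log2, SE 0.24, edgeR adjusted p = 0.00171) and by 1.33 over the whole lineage (log2, SE 0.25, edgeR adjusted p = 0.000233). The first-step value of 0.26 (log2, SE 0.26, edgeR adjusted p = 0.535) depended on that library: without it the difference was -0.090.

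mmu-miR-493-5p had the smallest difference between both steps. It had 26, 17 and 12 counts in the proliferating population, 35, 22 and 44 in the differentiating population and 178, 80 and 50 in neurons, or 17.6 ± 2.01, 25.2 ± 5.98 and 42.1 ± 3.69 CPM (SD, n = 3 each). The neuron libraries, from 38.4 to 45.8 CPM, did not overlap with the others, whereas the lowest differentiating progenitor library, at 19.4 CPM, lay below the highest proliferating one, at 19.7 CPM. Its first-step difference of 0.51 (log2, SE 0.28, edgeR adjusted p = 0.244) was the largest of the 7 tested members, and its rise at the second step was 0.74 (log2, SE 0.24, edgeR adjusted p = 0.0164). That call was lost without replicate 1 or 2 of the differentiating progenitors or replicate 1 of the neurons, where the edgeR adjusted p was 0.0521, 0.0687 and 0.0764. Over the whole lineage it rose by 1.25 (log2, SE 0.26, edgeR adjusted p = 0.000548).

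mmu-miR-673-5p, next to the end of Meg3, had 5, 7 and 5 counts in the proliferating population, 9, 2 and 7 in the differentiating population and 42, 17 and 18 in neurons. Neuron libraries ran from 8.97 to 13.8 CPM and progenitor libraries from 1.76 to 7.16 CPM, without overlap. miR-673-5p passed the filter on low counts only through its neuron libraries, so its being tested already favoured a difference towards neurons. With that limit, it rose at the second step by 1.27 (log2, SE 0.39, edgeR adjusted p = 0.0128), which did not hold without replicate 2 of the differentiating progenitors (edgeR adjusted p = 0.0689) or with DESeq2 (adjusted p = 0.0667). Over the whole lineage its difference of 0.96 (log2, SE 0.40, edgeR adjusted p = 0.0513) narrowly missed the threshold, and it was past it in 11 of 19 alternatives. It was the only tested member with a fitted first-step change below 0 (log2 difference -0.30, SE 0.49, edgeR adjusted p = 0.741), and without replicate 2 of the differentiating progenitors that value was 0.035.

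mmu-miR-370-5p, in the Rian intron, had 4, 5 and 2 counts in the proliferating population, 3, 5 and 8 in the differentiating population and 42, 15 and 16 in neurons. The neuron libraries, from 7.91 to 12.3 CPM, lay above all progenitor libraries, which reached 5.70 CPM. miR-370-5p passed the filter on low counts only through its neuron libraries, which built a difference in favour of neurons into its being tested. With that limit, it rose by 1.32 at the second step (log2, SE 0.38, edgeR adjusted p = 0.00915) and by 1.49 over the whole lineage (log2, SE 0.42, edgeR adjusted p = 0.00579). Its first-step difference was 0.17 (log2, SE 0.52, edgeR adjusted p = 0.844). The second-step call was lost without replicate 1 of the differentiating progenitors (edgeR adjusted p = 0.0605) and with DESeq2 (adjusted p = 0.0731). These were 2 of 18 alternatives that tested it. It fell below the filter without replicate 1 of the neurons and with the filter of 10 CPM in 3 libraries.

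**Figure D2:**
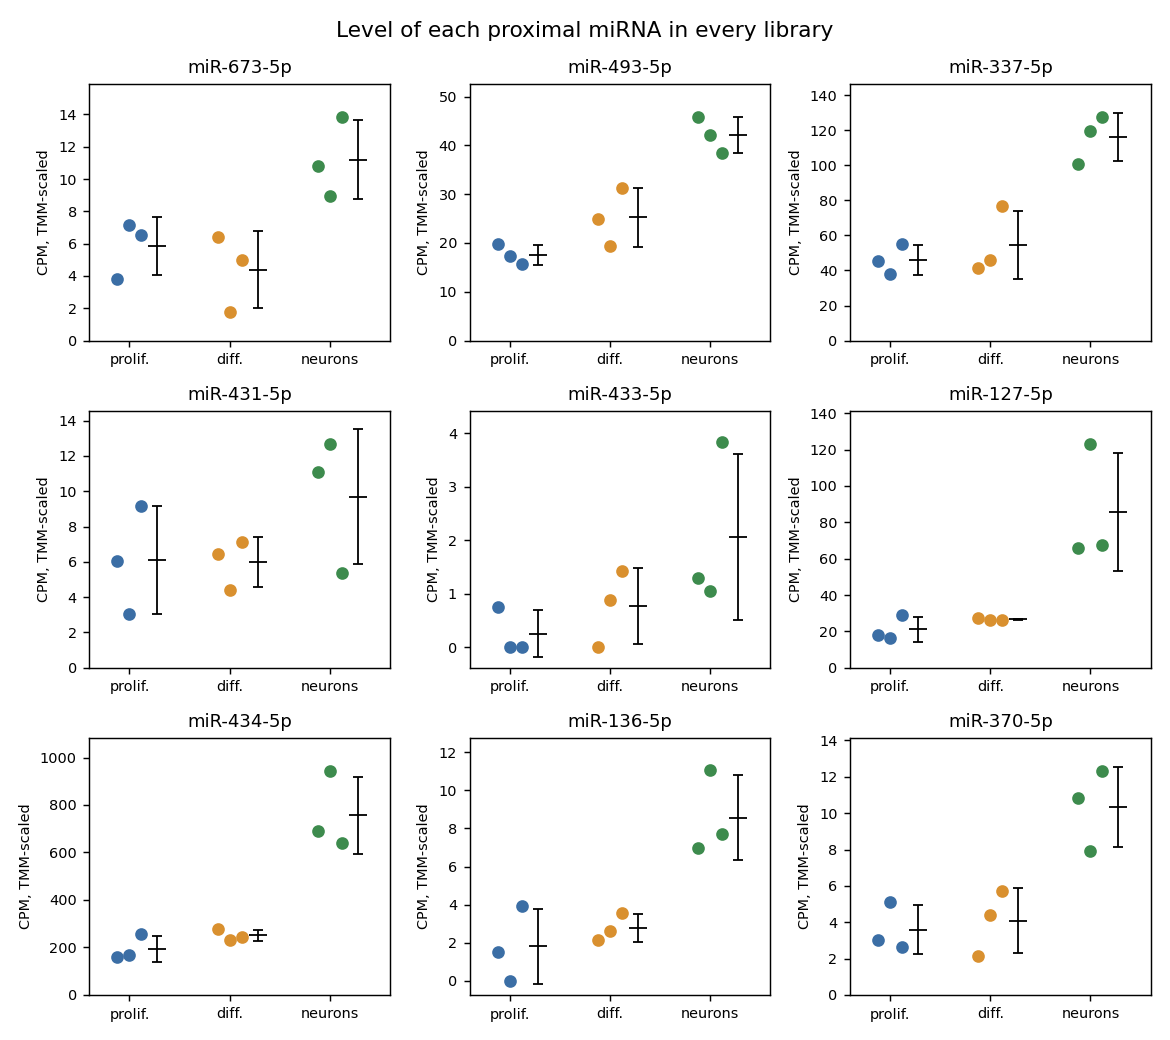
Level (CPM, TMM-scaled, linear axes that differ between panels) of the 9 proximal miRNAs in each library of proliferating progenitors (prolif.), differentiating progenitors (diff.) and newborn neurons; points are libraries, the horizontal mark is the mean and the bar the SD, n = 3. Neuron libraries lie above all libraries of both progenitor populations except for miR-431-5p and miR-433-5p.

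At the first step 0 of 7 were called higher by edgeR's quasi-likelihood test, where 7.98% of all 188 tested miRNAs were, and 0 of 7 lower, where again 7.98% were, or 16.0% in either direction. The count was also 0 at an unadjusted p under 0.05, and 0 with DESeq2. No member had proliferating and differentiating libraries that stood apart, against 13.8% of all tested miRNAs apart in the higher and 18.6% in the lower direction. At the second step 6 of 7 were called higher, against 23.9% of all tested miRNAs, and the libraries of 6 of 7 stood apart, against 27.1%. Over the whole lineage 5 of 7 were called higher, against 29.8%, and 6 of 7 stood apart, against 32.4%. No member was called lower in any of these comparisons, where 22.3% of all tested miRNAs were lower at the second step and 26.6% over the whole lineage. In either direction 46.3% and 56.4% of all tested miRNAs were called, and the libraries of 22.3% and 31.9% stood apart in the lower direction, as those of no member did. The median log2 change of the 7 was 0.26, 1.27 and 1.33 in the 3 comparisons, beside 0.08, -0.06 and -0.05 over all 188. Since the members were chosen with earlier results of these data known, these contrasts are a description.

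These counts need the filter beside them. Only miR-493-5p, miR-337-5p, miR-127-5p and miR-434-5p were past the limit of 7.55 CPM in all 9 libraries, and all 4 were called at the second step and over the whole lineage. The shares of 23.9% and 29.8% are over all 188 tested miRNAs. A share among those past the limit in all 9 libraries was not computed, so the 4 have no like share beside them. miR-673-5p and miR-370-5p passed only through their neuron libraries, so that a difference in favour of neurons was built into their being tested, and miR-431-5p passed through 2 neuron libraries and 1 of proliferating progenitors. Both miR-673-5p and miR-370-5p count among the members called at the second step, and the median change of 1.27 there is the value of miR-673-5p. The 2 untested members are not part of any count.

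**Figure D3:**
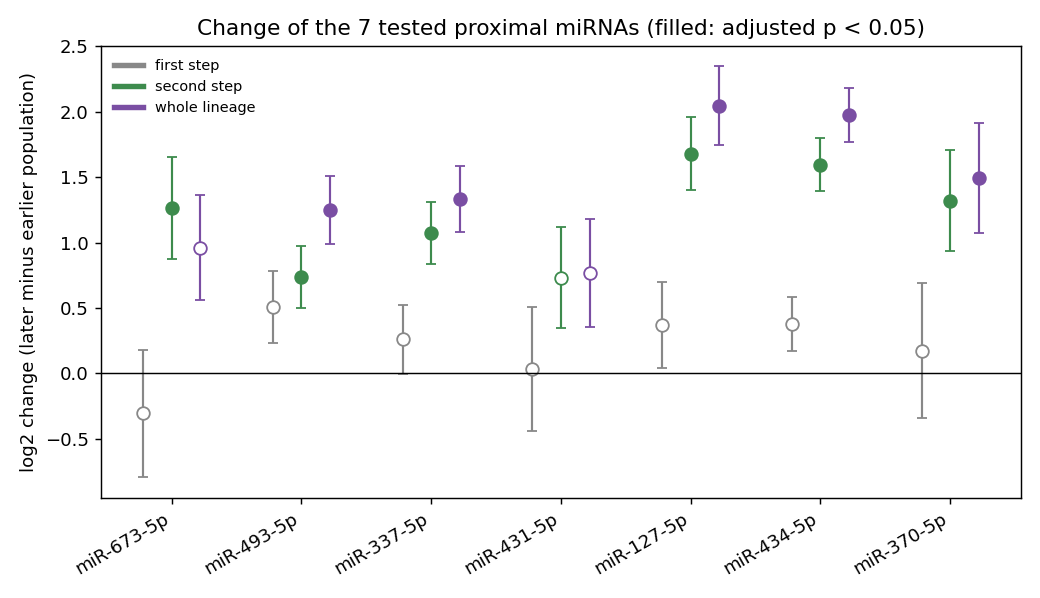
Log2 change (later minus earlier population, points; bars are SE) of the 7 tested proximal miRNAs at the first step, the second step and over the whole lineage, in their order along the chromosome; filled points have an edgeR adjusted p under 0.05. All first-step points are open, and 6 second-step points are filled, led by miR-127-5p at 1.68.

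Whether the second step was larger than the first was tested directly, as the difference between both log2 changes. This difference was above 0 for all 7 tested members and ran from 0.23 for miR-493-5p to 1.57 for miR-673-5p. Only miR-434-5p was called (difference 1.21, SE 0.36, edgeR adjusted p = 0.0477), beside 3.72% of all tested miRNAs in that direction, and no member in the other, beside 4.26%. This call was lost in 10 of 19 alternatives, among them without replicate 3 of the proliferating progenitors, any 1 of the 3 replicates of the differentiating progenitors or replicate 1 of the neurons, where the edgeR adjusted p lay between 0.0732 and 0.184. Over all 19 it ran from 0.00422 to 0.184. For miR-337-5p the difference was 0.81 (SE 0.44, edgeR adjusted p = 0.268), and without replicate 3 of the differentiating progenitors it was 1.56 and past the threshold (edgeR adjusted p = 0.0363). For the other tested members the difference between steps missed the threshold, which does not show that the steps were equal.

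miR-434-5p made up most of the proximal miRNA counts in every library. It took 65.1% ± 3.25 of the summed counts of the 9 in the proliferating population, 67.0% ± 5.39 in the differentiating population and 72.4% ± 2.35 in neurons (SD, n = 3 each). In single libraries its share ran from 61.0% (95% Wilson interval 56.9% to 64.9%) in replicate 3 of the differentiating progenitors to 74.2% (72.5% to 75.9%) in replicate 2 of the neurons. miR-337-5p came next with 15.7% ± 1.77, 14.5% ± 4.25 and 11.4% ± 2.33, and miR-127-5p with 7.05% ± 0.57, 7.14% ± 0.68 and 8.03% ± 1.46 (SD, n = 3 each). Shares within a library add up to the whole, so a larger share of miR-434-5p lowers those of the rest. Without miR-434-5p the other 8 summed to 102 ± 17.7, 125 ± 28.5 and 286 ± 37.2 CPM (SD, n = 3 each), which is 2.29 times as much in neurons as in differentiating progenitors, while the sum of all 9 was 2.78 times as much. The 5 members opposite Rtl1 summed to 287 ± 24.0 CPM in differentiating progenitors and 863 ± 198 CPM in neurons, and the 4 outside it to 88.4 ± 26.5 and 180 ± 11.9 CPM (SD, n = 3 each). miR-434-5p dominates the first of these sums, and a difference between both groups was not tested.

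**Figure D4:**
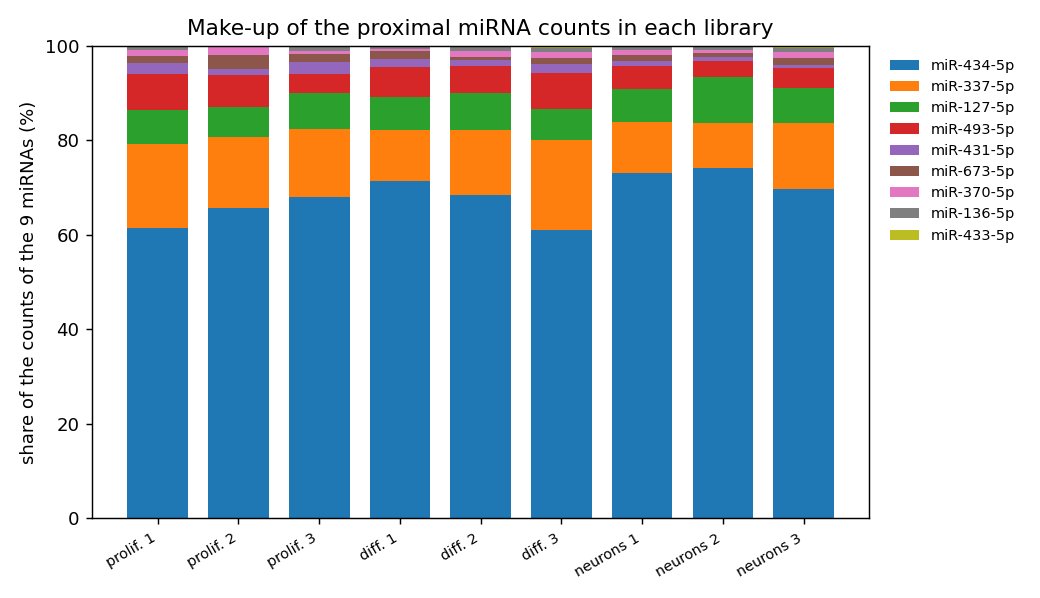
Share (%) of each proximal miRNA in the summed counts of the 9, as stacked bars for each of the 9 libraries. miR-434-5p fills 61.0% to 74.2% of every bar and miR-337-5p is second in 8 of the 9, behind miR-127-5p in neuron replicate 2.

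Across the 9 libraries the log2 levels of the 7 tested members correlated pairwise with Pearson r from 0.21 to 0.99 (21 pairs, median 0.70). These values describe libraries that fall into 3 populations and share their scaling, and are given as a description. The highest was between the neighbours miR-127-5p and miR-434-5p (r = 0.99), and the lowest between miR-431-5p and miR-370-5p (r = 0.21), both with few counts. Outside the members, the patterns closest to miR-434-5p over the 9 libraries were those of miR-135b-5p (r = 0.98), miR-411-5p (r = 0.98) and miR-7a-5p (r = 0.97). Of these, miR-411-5p belongs to the miR-379 to miR-410 cluster, and miR-7a-5p rose by more (log2 change at the second step 2.01). The closest to the mean of the 7 were miR-212-5p (r = 0.99), miR-379-5p (r = 0.98) and miR-411-5p (r = 0.98).

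The rest of the locus gives the setting. Of 7 further proximal miRNAs in the table, miR-770-5p, miR-665-5p, miR-540-5p, miR-3070-5p, miR-3071-5p, miR-341-5p and miR-1188-5p, no library held more than 3 counts of any, the limit that a count of 0 allows. The distal miR-379 to miR-410 cluster had 36 names in the table, of which 15 were tested. At the first step 3 of the 15 were called higher and 0 lower, at the second 12 and 0, and over the whole lineage 14 and 0, with median log2 changes of 0.55, 1.05 and 1.73. Beside them, 7.98%, 23.9% and 29.8% of all tested miRNAs were called higher in these comparisons, and 7.98%, 22.3% and 26.6% lower. Through which populations each of the 15 passed the filter was not examined. Its most abundant tested member, miR-541-5p, rose at the first step (log2 change 0.65, SE 0.16, edgeR adjusted p = 0.0103) and again at the second (0.92, SE 0.16, edgeR adjusted p = 0.000188). miR-379-5p, which opens the cluster and was second in level, had a first-step difference of 0.20 (log2, SE 0.19, edgeR adjusted p = 0.500) and rose by 1.03 at the second (log2, SE 0.18, edgeR adjusted p = 0.000232). miR-410-5p, which closes it, stayed under the filter at 3.13 ± 2.78, 4.50 ± 1.67 and 7.70 ± 1.69 CPM (SD, n = 3 each). The medians of both parts of the locus are given side by side, and a difference between them was not tested.

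**Figure D5:**
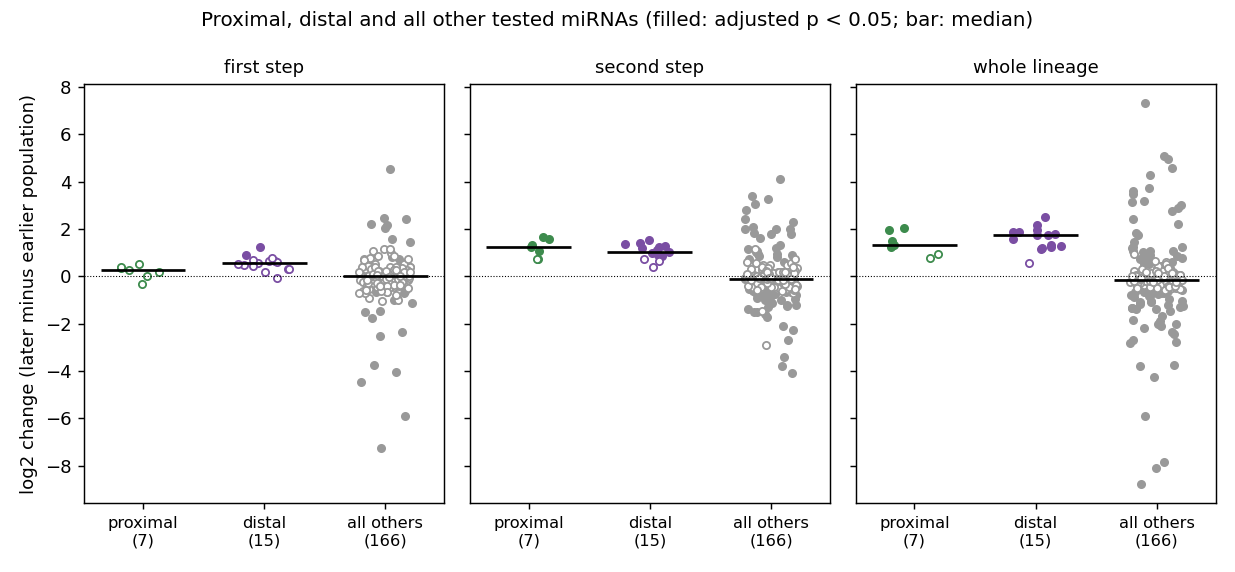
Log2 change (later minus earlier population) of the 7 tested proximal miRNAs, the 15 tested miRNAs of the distal cluster and all other tested miRNAs in the 3 comparisons; points are miRNAs, filled where the edgeR adjusted p is under 0.05, and the bar is the median. All proximal and distal points of the second step and the whole lineage lie above 0, while the other miRNAs spread to both sides.

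Meg3 is the maternally expressed lncRNA that lies before all 9 members, and the sequence around its RefSeq start is printed for its position in the locus. Its part in the members' levels was not tested. The window holds 250 bases before and 50 after the start, on the plus strand of chr12:109540746-109541045 (RefSeq, GRCm38.p6), and is the first of 2 windows listed for Meg3.
Meg3 start: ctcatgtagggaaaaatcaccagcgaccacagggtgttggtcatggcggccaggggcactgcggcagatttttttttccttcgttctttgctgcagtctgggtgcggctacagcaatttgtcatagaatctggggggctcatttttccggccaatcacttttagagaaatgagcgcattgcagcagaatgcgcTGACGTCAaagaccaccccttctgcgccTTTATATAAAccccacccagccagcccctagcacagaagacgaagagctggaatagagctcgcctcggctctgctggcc
Capitals mark matches to 2 motifs searched on both strands, TGACGTCA, known as the cAMP response element, and TATAAA, the core of a TATA box. TGACGTCA matches once and starts 57 bases before the start, and 1.79% of the 32851 promoter windows in the table hold it. TATAAA matches once on each strand, the matches overlap and the one on the plus strand starts 25 bases before the start, and 13.6% of all windows hold it. A match is a description of these letters, and neither Meg3 RNA nor binding there was measured.

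Library totals ran from 821155 to 3856484 miRNA counts, the highest being a neuron library, and they are not the sequencing depth, which is unknown. TMM factors ran from 0.903 to 1.02 except for 1.22 in neuron replicate 3. With library totals in place of TMM the median log2 change of all tested miRNAs over the whole lineage moved from -0.05 to 0.13, and all 7 tested members stayed above 0 at the second step and over the whole lineage in each of 4 scalings. Markers of other cells moved with the populations: summed erythroid miRNAs (miR-451a, miR-144-5p) ran from 260 to 354 CPM in the proliferating population, from 0.881 to 2.86 in the differentiating population and from 0 to 2.31 in neurons, where miR-144-5p was at 0. The 3 mural rows of miR-143 and miR-145a ran from 433 to 571, 37.1 to 39.9 and 12.3 to 34.7 CPM, with miR-143-5p at 0 after the first population. The 4 haematopoietic rows summed to 26.2 to 33.7, 12.1 to 19.2 and 0.772 to 1.54 CPM, with 3 of them at 0 in neurons, and endothelial miR-126a-5p ran from 18.4 to 26.2, 11.4 to 12.3 and 5.28 to 12.3 CPM. In all 4 lists the lowest value was that of a neuron library, and the haematopoietic sum did not overlap between differentiating progenitors and neurons. Most of that sum in differentiating progenitors was miR-146a-5p, at means of 7.10, 14.8 and 1.12 CPM in the 3 populations. The other haematopoietic rows were highest in the proliferating population, among them miR-142a-5p at means of 21.5, 1.24 and 0 CPM. The part of these lists in the results was not tested. Of the labelled cells' own miRNAs, the 5 neuronal rows summed to 1843 to 1979, 1706 to 2067 and 2167 to 2731 CPM, with miR-124-5p at means of 57.7, 175 and 435 CPM and miR-129-5p, in the opposite order, at 689, 342 and 213 CPM. The 3 progenitor rows summed to 664881 to 741723, 623727 to 673335 and 514221 to 667536 CPM, which overlap. Most of this sum was miR-9-5p, at means of 714572, 646300 and 612029 CPM. Its log2 change over the whole lineage was -0.22 (edgeR adjusted p = 0.101). Progenitor miR-92b-5p stood at means of 358, 235 and 82.9 CPM, and miR-25-5p at 131, 109 and 36.3 CPM.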

How the data were processed

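Small RNA libraries (NEBNext Small RNA kit, per the labels' protocols) of 3 sorted populations, 3 each, were analysed from 1 table of whole-number read counts per miRNA deposited by the authors, with no normalisation or pooling of replicates seen in its values. The submitters' processing notes name mm10, bcl2fastq 1.8.2 and DESeq2; counting tool and miRNA release are not given in the sources used here. Of 1433 rows, 1211 carried an accession, of which 925 were named 5p, 114 were named 3p and 172 named no arm. The row with the largest total was kept per name, and names with at least 50 counts differing by at most 2% were merged, leaving 1052 miRNAs. The labels name no molecular identifiers, and PCR copies count as reads, so intervals and floors cover counting error only. 3 counts are worth 0.772 to 3.93 scaled CPM.

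All 9 libraries entered 1 fit in edgeR 4.0.16 (R 4.3.3): filterByExpr by population (188 kept, 99.97% of counts), TMM, estimateDisp, glmQLFit and glmQLFTest, no covariate, Benjamini-Hochberg over the 188, threshold 0.05. SE is the log2 change divided by the root of F. The script was tested on simulated data. DESeq2 1.42.0, other scalings, filters, row choices, a replicate block and fits without each library were alternatives. Every member is named; of the distal list, the 2 highest and both end members; for likeness, the 3 highest r of log2 CPM with a prior count of 2. Positions come from RefSeq and GENCODE M21. The members and lists were chosen with earlier results of these data known.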

Additional observations from a re-analysis of the deposited data

How the results depend on the processing

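Alternatives tested between 4 and 9 members, so counts of calls do not share a denominator. At the second step DESeq2 called 4 of 7 members in place of 6 of 7, without miR-370-5p and miR-673-5p; a filter of 10 CPM in 3 libraries called all 4 that it tested, no filter called 7 of 9, and fits without 1 library called 5 to 7 of 7 or 8. Over the whole lineage, in place of 5 of 7, these were 5 of 7, 4 of 4, 6 of 9, and 5 to 7 of 7 or 8. The share of all tested miRNAs called in each of these alternatives was not set beside them. These counts therefore describe the members' calls only. No member was called at the first step, and none lower, under any alternative. For miR-127-5p, miR-337-5p and miR-434-5p direction and call held at the second step and over the whole lineage in all 20 alternatives each. Over all miRNAs, the 30 calls of the first step became 68 with every row with an accession, 19 with predicted rows included, and 18 to 37 without 1 library each, the lowest without replicate 1 of the proliferating progenitors. The 15 calls for the difference between both steps became 8 with library totals, 27 with DESeq2, 26 with every row with an accession, 6 with predicted rows included, and 7 to 18 without 1 library each (7, 9 and 8 without proliferating replicate 3, differentiating replicate 1 and neuron replicate 1). The number of members called there, 1, became 0 with RLE size factors, library totals, the replicate block, every row with an accession and predicted rows included, and 0 to 1 without 1 library each; without differentiating replicate 3 the 1 member called was miR-337-5p, not miR-434-5p. The causes were not tested.

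First-step differences that changed sign were all far from the threshold. miR-431-5p was at -0.046 with library totals without miR-9-5p, -0.010 with merging only identical rows and -0.040 with predicted rows included, and from -0.26 to 0.35 without 1 library each. The same ranges were -0.090 to 0.42 for miR-337-5p, -0.19 to 0.49 for miR-370-5p and -0.67 to 0.035 for miR-673-5p. The difference between steps of miR-493-5p ran from -0.065 to 0.69. The titles share replicate numbers, and the deviations of same-numbered libraries correlated by -0.07 to 0.25, above 0.1 in 4 of 9 pairs. Pairs with different numbers ran from -0.26 to 0.12. Only 2 of 9 libraries correlated best with their own number in both other populations. Whether same-numbered libraries share more than a number, such as a sort, was not tested. With the replicate block 33, 88 and 108 miRNAs were called in the 3 comparisons in place of 30, 87 and 106, and 6 members in place of 5 over the whole lineage, the sixth being miR-673-5p (edgeR adjusted p = 0.0441). Depth limits miR-433-5p and miR-136-5p, and the 3p arms had no rows to analyse.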
